A study of Mus musculus with 6 samples.

Results

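The genes described here encode proteins of the nucleolus and of RNA polymerase I (Pol I). They are 46 named genes, chosen by their known roles in making ribosomes, and all 46 are among the 46963 gene names of the count table. RNA was sequenced from CD43-depleted splenic B-cells of wt mice, of Eμ-deficient mice, which lack an enhancer at the 5′ end of the immunoglobulin heavy chain (IgH) constant genes with its flanking matrix attachment regions, and of 3′RR-deficient mice, which lack the regulatory region at the 3′ end of these genes. Male and female adult mice were used. The wt mice were of the same inbred strain as the background of both lines with a deletion. Cells of each genotype were either resting or stimulated for 2 days with 5 μg per ml lipopolysaccharide (LPS), a bacterial cell wall molecule to which B-cells respond. The labels describe the resting cells as cultured without LPS for the same time, while the study's own account has them taken before stimulation. Each genotype and state has 1 library, pooled from 2 mice, so that no difference between genotypes within a state has a replicate check.

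Ribosome production starts in the nucleolus, where Pol I transcribes the ribosomal DNA into a long precursor RNA. Small nucleolar ribonucleoproteins (snoRNPs) modify this precursor at chosen bases, box C/D snoRNPs by ribose methylation and box H/ACA snoRNPs by pseudouridylation, and sets of assembly factors fold and cut it into the RNAs of the small and the large ribosomal subunit. Resting B-cells are small cells with little cytoplasm, and activated B-cells enlarge before they divide and begin to secrete antibody. The 46 genes fall into 6 roles, with 6 subunits and factors of Pol I, 3 proteins of box C/D snoRNPs, 5 of box H/ACA snoRNPs, 5 nucleolar proteins with several roles, 14 factors of the small subunit and 13 factors of the large subunit. Nolc1, a chaperone of snoRNPs and not one of their core proteins, is counted with the box H/ACA proteins.

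The genes of the wt, Eμ-deficient and 3′RR-deficient libraries received 16094475, 13406257 and 20780706 counts in resting B-cells and 21998587, 10936243 and 9111974 counts after LPS stimulation. Levels are given as CPM, counts relative to the library size after scaling with edgeR's TMM method. At this depth every one of the 46 genes passed the filter of 10 counts in at least 2 libraries. The lowest value was 98 counts, for Polr1e in the resting Eμ-deficient library, and the highest was 43389 counts, for Npm1 in the LPS-stimulated wt library. Each 95% interval covers at most the error of counting and treats every read as independent. PCR copies of a molecule are counted as reads of their own, so that the intervals may be too narrow even for this error.
Markers of B-cells were present in every library. The 7 markers (Cd79a, Cd79b, Ms4a1, Pax5, Cd22, Cd74 and Blnk) summed to 5553, 4339 and 5297 CPM in the resting wt, Eμ-deficient and 3′RR-deficient libraries and to 2635, 2373 and 2869 CPM after LPS. Cd74, the invariant chain of antigen presentation, was the most abundant of them, and 2 of the 7 were called lower after LPS.
Some libraries stood apart in technical measures. Across 35 spike-in RNAs that reached 100 counts in each library, the SD of log2 LPS-to-resting ratios was 0.78 in wt, 0.63 in 3′RR-deficient and 0.13 in Eμ-deficient B-cells. Between the 3′RR-deficient and the wt library, the SD was 1.27 after LPS and 0.16 at rest, and between the Eμ-deficient and the wt library it was 0.44 after LPS and 0.48 at rest. For LPS, the counts of called genes are therefore also given without each genotype. Ratios to wt cannot be given without these libraries.

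Between resting and LPS-stimulated B-cells, the question was whether the ribosome production genes change with activation. In the edgeR quasi-likelihood fit of genotype plus culture state, 34 of the 46 genes were higher after LPS at an adjusted p under 0.05, and 0 were lower. Among all 14600 genes tested, 2881 (19.7%) were higher and 3082 (21.1%) were lower. The median log2 fold change was 1.16 over the 46 genes and -0.07 over all genes tested. Every one of the 46 genes had a log2 fold change above 0, but that of Gnl3 was below 0 with scaling by total gene counts or spike-in RNAs, with a filter of 10 counts in all libraries, with a GC or length trend removed and without the wt libraries, and that of Rrp1 was below 0 without the 3′RR-deficient libraries. Together the 46 genes took 2675, 2612 and 2705 CPM in the resting wt, Eμ-deficient and 3′RR-deficient libraries and 7391, 5102 and 7216 CPM after LPS. Without Ncl and Npm1, which hold a large share of these counts, the sums were 1992, 1745 and 1925 CPM at rest and 4068, 3126 and 4668 CPM after LPS.
The residual of this fit has 2 degrees of freedom and measures departure from additivity, not spread between mice. With library sizes taken from the summed spike-in RNAs, 13 of the 46 genes were called higher, while 1453 (9.95%) of all genes were. By role these were all 5 box H/ACA proteins, 3 of 5 nucleolar proteins with several roles, 1 of 3 box C/D proteins, 4 of 13 large subunit factors, 0 of 6 Pol I genes and 0 of 14 small subunit factors. This scaling lowered the median of all genes from -0.07 to -0.28 and that of the 46 genes from 1.16 to 0.97. Without the 2 wt libraries 42 of the 46 genes were called higher, against 24.7% of the genes then tested, without the 2 Eμ-deficient libraries 30, against 14.9%, and without the 2 3′RR-deficient libraries 26, against 16%. Ubtf, Utp20, Heatr1 and Wdr43 were not called without the Eμ-deficient libraries, and these 4 with Polr1b, Polr1c, Bop1 and Noc4l were not called without the 3′RR-deficient ones.

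**Figure D1:**
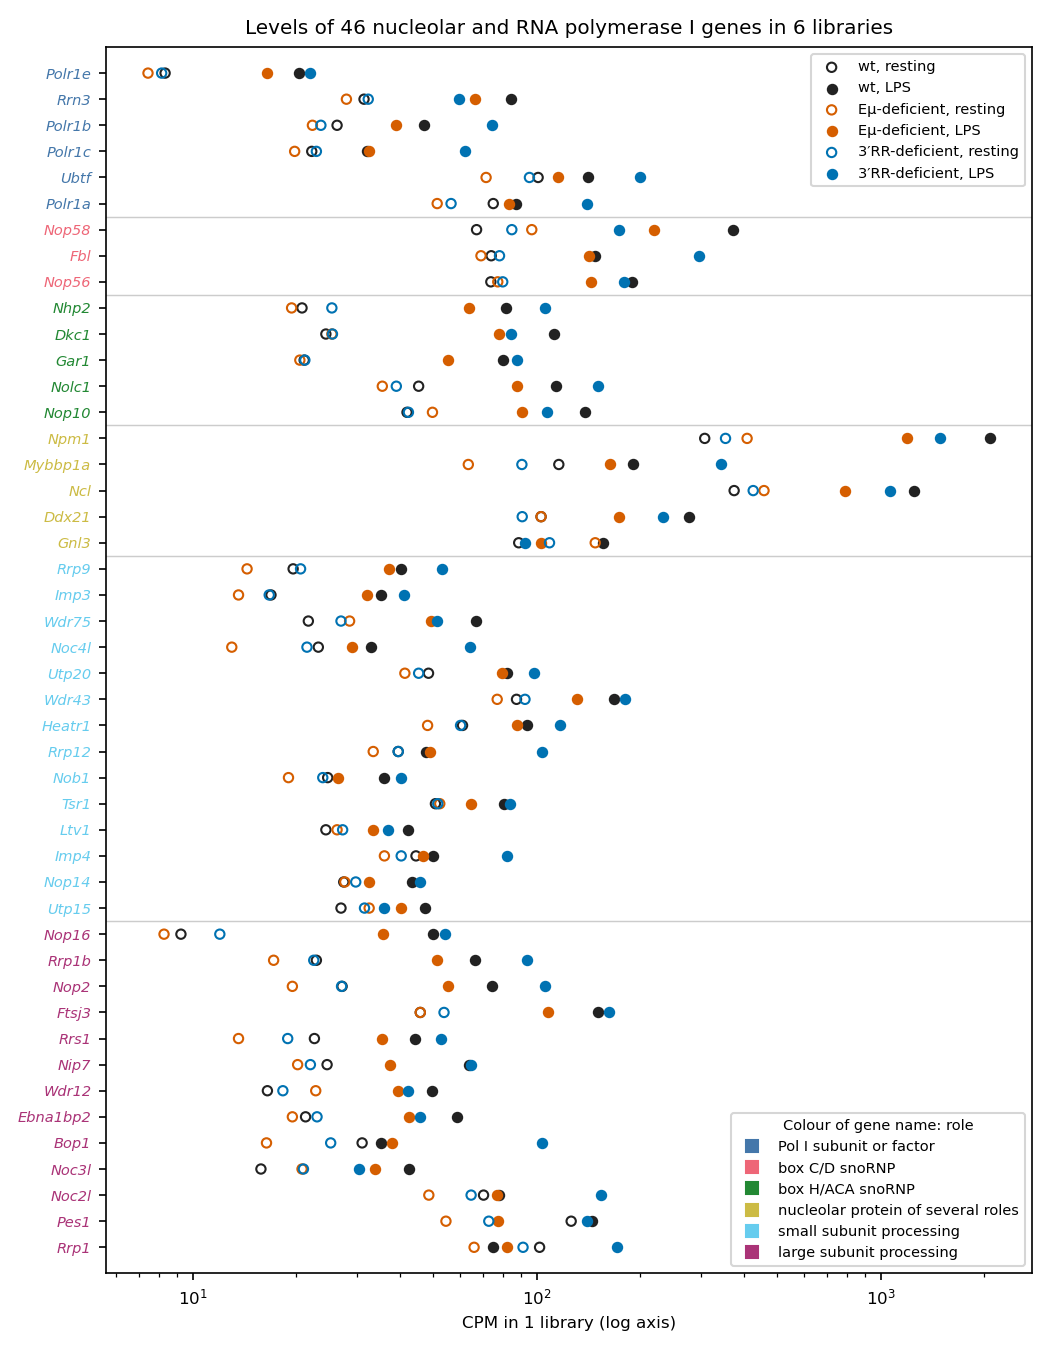
CPM of each of the 46 genes in each of the 6 libraries, on a log axis, with open circles for resting and filled circles for LPS-stimulated B-cells and the genes ordered by role and by their change with LPS. The 3 filled circles lie to the right of the 3 open ones for 43 of the 46 genes, against 25% of all genes tested (24 with spike-in scaling, against 16.5%), and they are mixed for Gnl3, Rrp1 and Pes1.

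Of the Pol I subunits and factors, 5 of 6 rose and the median log2 fold change of the 6 was 1.00. The count was 0 with spike-in scaling, 4 without the Eμ-deficient, 2 without the 3′RR-deficient and 6 without the wt libraries. Polr1e, a Pol I subunit (ENSMUSG00000028318, chr4:45018583-45036565, plus strand), had 8.32, 7.42 and 8.13 CPM in the resting wt, Eμ-deficient and 3′RR-deficient libraries and 20.4, 16.5 and 21.9 CPM after LPS. Every LPS library was thus above every resting library, and the log2 fold change was 1.29 with a standard error of 0.24 (edgeR quasi-likelihood test, Benjamini-Hochberg adjusted p = 0.00317). Rrn3, the initiation factor that brings Pol I to the ribosomal DNA promoter, had 31.5, 28.0 and 32.4 CPM at rest and 84.1, 66.1 and 59.5 CPM after LPS, with a log2 fold change of 1.18. Ubtf, which binds the ribosomal DNA and had the highest level per transcript length of these genes (mean 49.4 TPM), had 101, 71.3 and 95.3 CPM at rest and 115 to 200 CPM after LPS. Its log2 fold change was 0.75 with a standard error of 0.24 (edgeR adjusted p = 0.0358), and it was also not called with scaling by total counts, with a filter of 10 counts in all libraries or with no genotype term. Polr1b, which encodes the second largest subunit, and Polr1c, a subunit shared with RNA polymerase III, had log2 fold changes of 1.10 and 0.90 and were called, but Polr1c was also not called with a length trend removed (0.67). Polr1a, which encodes the largest subunit, had 74.8, 51.4 and 56.4 CPM at rest and 87.3, 83.0 and 140 CPM after LPS. It did not pass the threshold (log2 fold change 0.74, standard error 0.27, edgeR adjusted p = 0.0519), although its 3 LPS libraries also lay above its 3 resting ones. Polr1a was called with DESeq2 size factors, with no low-count filter and by the DESeq2 Wald test. The same held with a GC or length trend removed and without the wt libraries.

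All 3 box C/D proteins rose, with a median log2 fold change of 1.32. Nop58, a core protein of the particle (chr1:59684971-59719044), had 66.9, 96.8 and 84.7 CPM in the resting wt, Eμ-deficient and 3′RR-deficient libraries and 372, 219 and 173 CPM after LPS. The LPS libraries did not overlap the resting ones, the highest value was in wt, and the standard error of the log2 fold change of 1.56 was 0.33 (edgeR adjusted p = 0.0057). Fbl, fibrillarin, the methyltransferase of the particle (chr7:28169710-28179269), had 73.8, 68.9 and 78.0 CPM at rest and 148, 142 and 296 CPM after LPS, here with the highest value in the 3′RR-deficient library. With a mean of 126 TPM it was the most abundant of the 3. Nop56, the partner of Nop58, had 73.6 to 79.7 CPM at rest and 144 to 189 CPM after LPS, and a log2 fold change of 1.15. Of the stretches of 75 bases in annotated transcripts, 17.7% of those of Fbl and 14.2% of those of Nop56 also occur in transcripts of other genes. For Fbl these are Tulp4, which codes for protein, and pseudogenes, with counts equal to 28.1% of its own, so that the division of reads between them is uncertain.

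All 5 box H/ACA proteins rose as well, and their median log2 fold change of 1.80 was the highest of the 6 roles. Nhp2, a core protein (chr11:51619735-51623714), had 20.8, 19.4 and 25.4 CPM in the resting wt, Eμ-deficient and 3′RR-deficient libraries and 81.3, 63.6 and 106 CPM after LPS. This is a 3.77-fold higher level (log2 fold change 1.91, standard error 0.22, edgeR adjusted p = 0.000333). Dkc1, dyskerin, the pseudouridine synthase, which is also a part of telomerase (chrX:75095854-75109777), had 24.4, 25.4 and 25.5 CPM at rest and 112, 77.7 and 84.1 CPM after LPS. Its resting levels were close to each other in the 3 genotypes, and its log2 fold change was 1.85. Gar1, which completes the core, and Nolc1, a nucleolar chaperone of snoRNPs, had log2 fold changes of 1.80 and 1.53. Nop10, the smallest protein of the core and the most abundant here per length (mean 80.0 TPM), had the smallest log2 fold change of the 5. It had 42.0, 49.8 and 42.4 CPM at rest and 138, 90.5 and 107 CPM after LPS, a log2 fold change of 1.31.

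Of the nucleolar proteins with several roles, 4 of 5 rose. Npm1, nucleophosmin, an abundant nucleolar protein and chaperone (ENSMUSG00000057113, chr11:33152287-33163206, minus strand), had 308, 409 and 354 CPM in the resting wt, Eμ-deficient and 3′RR-deficient libraries and 2077, 1189 and 1487 CPM after LPS. It was the most abundant of the 46 genes (mean 675 TPM), and its log2 fold change of 2.12 (standard error 0.33, edgeR adjusted p = 0.00121) corresponds to a 4.35-fold higher level. Npm1 has near-identical copies in the genome, since 18.1% of the stretches of 75 bases in its annotated transcripts also occur in transcripts of other genes, most of them processed pseudogenes. Those of these genes that are in the count table took counts equal to 1.1% of its own, but the division of reads between the copies is uncertain. Mybbp1a, known as a partner of the Myb transcription factor, had 116, 63.3 and 90.6 CPM at rest and 190, 163 and 344 CPM after LPS, a log2 fold change of 1.33. Ncl, nucleolin, and Ddx21, an RNA helicase, had log2 fold changes of 1.28 and 1.18 and were both called.
Gnl3, nucleostemin, a GTPase that shuttles between nucleolus and nucleoplasm (ENSMUSG00000042354, chr14:31012433-31019152, minus strand), was not called. It had 88.7, 148 and 109 CPM at rest and 156, 103 and 92.7 CPM after LPS, so that resting and LPS-stimulated libraries overlapped. Its log2 fold change was 0.02 with a standard error of 0.30 (edgeR adjusted p = 0.967), and its log2 ratio was 0.81 (95% interval 0.73 to 0.90) in wt, -0.52 (-0.63 to -0.41) in Eμ-deficient and -0.23 (-0.35 to -0.12) in 3′RR-deficient B-cells.

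Among the factors of the small subunit, 7 of 14 rose and the median log2 fold change of the 14 was 0.78, the lowest of the 6 roles. The count was 0 with spike-in scaling, 4 without the Eμ-deficient and 3 without the 3′RR-deficient libraries. It was 11 without the wt libraries and 12 with the GC trend removed. Rrp9, a protein of the snoRNP that pairs with the precursor in the small subunit processome (chr9:106475963-106485424), had 19.6, 14.4 and 20.6 CPM in the resting wt, Eμ-deficient and 3′RR-deficient libraries and 40.3, 37.3 and 53.2 CPM after LPS. The log2 fold change was 1.26 with a standard error of 0.22 (edgeR adjusted p = 0.00242). Imp3, which binds the same snoRNP, had 16.9, 13.6 and 16.7 CPM at rest and 35.3, 32.1 and 41.2 CPM after LPS, a log2 fold change of 1.20. For both genes the 3 LPS libraries lay above the 3 resting ones. Wdr43, a processome protein, had the highest level per length of this role (mean 40.1 TPM), although the transcript length used for Imp4 is uncertain. Wdr43 had 87.4, 76.8 and 92.5 CPM at rest and 168, 131 and 181 CPM after LPS, a log2 fold change of 0.89. The other called factors were Wdr75, Noc4l, Utp20 and Heatr1, with log2 fold changes from 0.82 to 1.11.
The 7 factors that were not called were Rrp12, Nob1, Tsr1, Ltv1, Imp4, Nop14 and Utp15, with log2 fold changes from 0.44 to 0.73 and edgeR adjusted p from 0.0541 to 0.159. Each of them but Utp15 was called in some alternative fit. With the GC trend removed these were Rrp12, Nob1, Tsr1, Ltv1 and Nop14, and without the wt libraries Rrp12, Nob1, Tsr1 and Imp4. Rrp12, Nob1, Tsr1 and Ltv1 act late, during export and final maturation in the cytoplasm, and Nob1 is the nuclease that makes the last cut. Utp15, an early processome protein, had 27, 32.6 and 31.6 CPM at rest and 47.5, 40.4 and 35.9 CPM after LPS. Its 3 LPS libraries lay above its 3 resting ones, with the highest value in wt.

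In the group of large subunit factors, 10 of 13 rose and the median log2 fold change of the 13 was 1.20. Nop16, a nucleolar factor of large subunit assembly (ENSMUSG00000025869, chr13:54584185-54590090, minus strand), had the largest log2 fold change of the 46 genes. It had 9.25, 8.26 and 12.0 CPM in the resting wt, Eμ-deficient and 3′RR-deficient libraries and 50, 35.7 and 54.1 CPM after LPS. Its level was 4.72-fold higher (log2 fold change 2.24, standard error 0.23, edgeR adjusted p = 0.000194), and it ranked at place 563 of the 14600 genes by log2 fold change. Rrp1b, which is related to Rrp1, had 22.9, 17.2 and 22.5 CPM at rest and 66.2, 51.5 and 94.0 CPM after LPS, a log2 fold change of 1.72. Nop2 and Ftsj3, both methyltransferases, had log2 fold changes of 1.64 and 1.52. Rrs1, Nip7, Wdr12, Ebna1bp2, Bop1 and Noc3l were also called, with log2 fold changes from 0.89 to 1.28.
Pes1, Bop1 and Wdr12 form 1 complex that is needed for large subunit maturation, and 2 of the 3 were called. Wdr12 had a log2 fold change of 1.20 and Bop1 of 1.15. Neither was called with spike-in scaling, and Bop1 was also not called with scaling by total counts or with no genotype term. The log2 fold change of Bop1 was 0.68, not called, without the 3′RR-deficient libraries and 1.67 without the wt libraries. Pes1 had 126, 54.5 and 72.6 CPM at rest and 145, 77.1 and 140 CPM after LPS, a log2 fold change of 0.55 (standard error 0.25, edgeR adjusted p = 0.105). With the GC trend removed and without the wt libraries, Pes1 was called higher. Rrp1, the most abundant factor of this role (mean 55.5 TPM), had 102, 65.8 and 91.3 CPM at rest and 74.9, 82.0 and 171 CPM after LPS. In wt its level was lower after LPS and in the other genotypes higher, and its log2 fold change of 0.26 was not called (standard error 0.29, edgeR adjusted p = 0.503). Without the wt libraries Rrp1 was called, as were all 13 large subunit factors. Noc2l, the remaining factor, had a log2 fold change of 0.69 and was not called (edgeR adjusted p = 0.0672). It was called with no low-count filter, by the DESeq2 Wald test, with a GC or length trend removed and without the wt libraries.

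**Figure D2:**
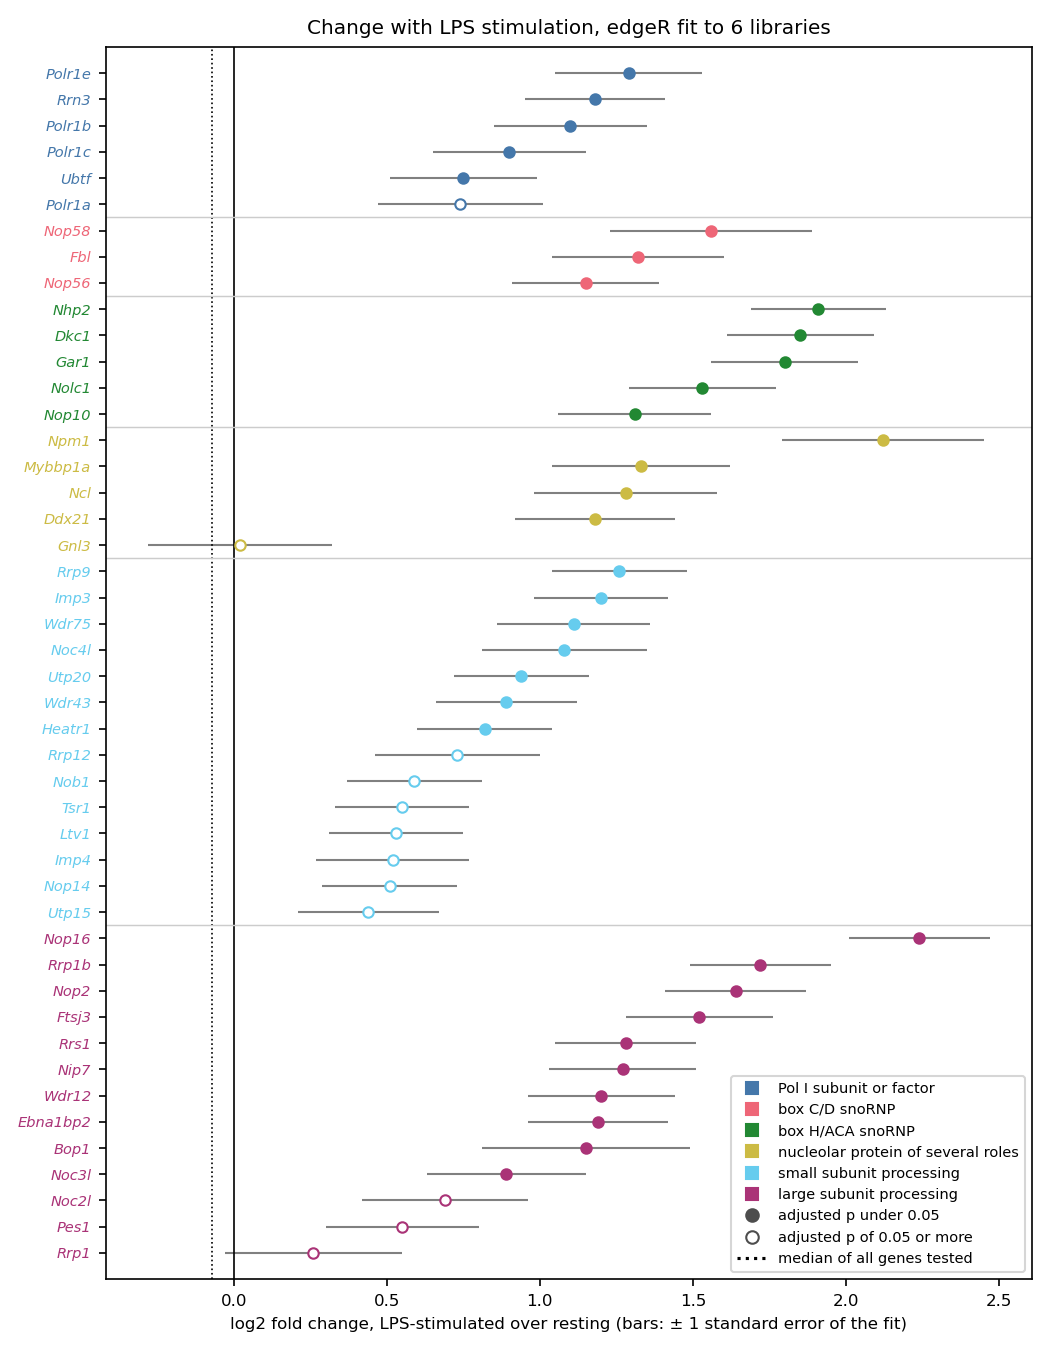
Log2 fold change of each of the 46 genes between LPS-stimulated and resting B-cells in the additive edgeR fit to 6 libraries, with bars of 1 standard error, filled points for adjusted p under 0.05 and a dotted line at the median of all genes tested (-0.07). The box H/ACA proteins lie between 1.31 and 1.91, the small subunit factors between 0.44 and 1.26, and Gnl3 lies at 0.02.

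Each genotype gives 1 pair of libraries, so that the LPS ratios within a genotype are descriptions of 2 libraries and were not tested. In wt B-cells, 24 of the 46 genes were at least 2-fold higher in the LPS than in the resting library, against 21.4% of all genes. In Eμ-deficient B-cells 20 of 46 were, against 17%, and in 3′RR-deficient B-cells 32 of 46, against 18.6%. With spike-in scaling these counts were 6 (all genes 9.32%), 25 (20.9%) and 32 (18.5%). For the 46 genes the median log2 ratio was 1.03 in wt, 0.88 in Eμ-deficient and 1.31 in 3′RR-deficient B-cells, while that of all genes was -0.08, 0.00 and -0.09. The order of these medians depended on the scaling, since they were 0.78, 0.86 and 1.29 with total counts and 0.23, 1.04 and 1.31 with spike-in RNAs. With the TMM scaling 45 of the 46 genes were higher after LPS in each genotype taken alone, against 47.7% of all genes in wt, 50% in Eμ-deficient and 46.9% in 3′RR-deficient B-cells. The exception was Rrp1 in wt and Gnl3 in the other genotypes. In wt the count was 40 with total counts (all genes 40.3%) and 29 with spike-in RNAs (25.9%), and in the other genotypes it was 45 with both.
At least 2-fold higher in each of the 3 genotypes were 14 of the 46 genes, against 9.51% of all genes. These were Nop58 and Fbl of the box C/D proteins, Dkc1, Nhp2, Gar1 and Nolc1 of the box H/ACA proteins, the Pol I subunit Polr1e, Npm1, the small subunit factors Rrp9 and Imp3, and the large subunit factors Nop2, Nop16, Rrp1b and Ftsj3. With spike-in scaling 6 were, against 6.21% of all genes, namely Nop58, Npm1, Dkc1, Nhp2, Gar1 and Nop16. A ratio above 1 in each genotype was found for 44 of the 46 genes, against 31.9% of all genes, Gnl3 and Rrp1 being the others. With spike-in scaling it was found for 28, against 20.9%.
The range of the ratios was widest in wt. There the log2 ratio ran from -0.45 for Rrp1 to 2.75 for Npm1, with an SD of 0.69 over the 46 genes. In Eμ-deficient B-cells it ran from -0.52 to 2.11 with an SD of 0.48, and in 3′RR-deficient B-cells from -0.23 to 2.17 with an SD of 0.54. Nop16 had the highest ratio in the last 2 genotypes.
The Pol I genes had a median log2 ratio of 0.69 in wt, 0.76 in Eμ-deficient and 1.37 in 3′RR-deficient B-cells. For the box H/ACA proteins the medians were 1.92, 1.43 and 1.95, and for the small subunit factors 0.71, 0.66 and 0.96. Base composition moved with these ratios. Over the 46 genes, the log2 ratio and the GC content of the transcript, which ran from 42.4% for Npm1 to 59.8% for Rrp9, had a Pearson correlation of -0.43 in wt, 0.26 in Eμ-deficient and 0.44 in 3′RR-deficient B-cells. These are correlations across genes of the same pair of libraries, and genes are not independent replicates. After removal of the GC trend from each set of ratios, the median log2 ratio was 1.17 in wt, 0.83 in Eμ-deficient and 1.28 in 3′RR-deficient B-cells, and Rrp1 in wt moved from -0.45 to 0.01. The fold change of the fit over all 6 libraries had a Pearson correlation of 0.05 with GC content over the 46 genes.

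**Figure D3:**
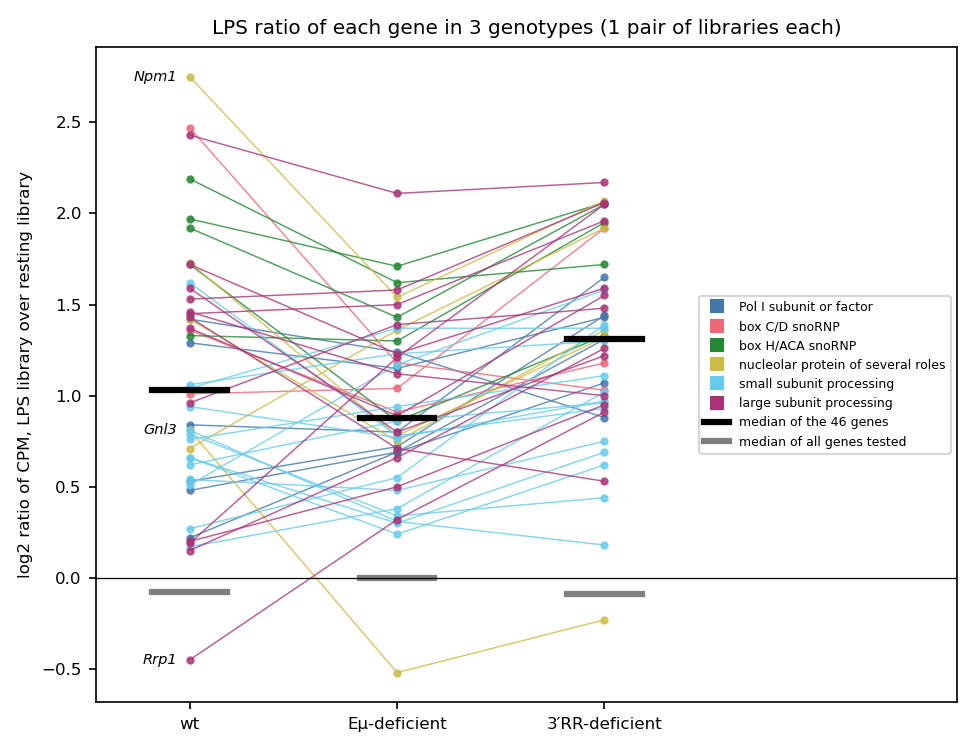
Log2 ratio of CPM in the LPS library over that in the resting library for each of the 46 genes, with 1 point per genotype joined by a line and coloured by role, and bars at the medians of the 46 genes (black) and of all genes tested (grey). The medians of the 46 genes are 1.03, 0.88 and 1.31 and those of all genes lie between -0.09 and 0.00, and Gnl3 and Rrp1 cross 0.

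Markers of some cells other than B-cells were lower after LPS. The 8 myeloid markers summed to 165, 397 and 169 CPM in the resting wt, Eμ-deficient and 3′RR-deficient libraries and to 25.8, 41.6 and 33.9 CPM after LPS, and all 8 were called lower. Lyz2 was the most abundant of them in every library but the LPS-stimulated wt one, where Itgam was. After LPS, Cd14 had 0 counts in the 3′RR-deficient library and S100a9 in the wt one. The 8 T-cell markers, led by Cd4 at rest and by Cd28 after LPS, summed to 19.1, 42.3 and 23.0 CPM at rest and to 1.53, 9.38 and 4.95 CPM after LPS, and 6 of the 7 that were tested were called lower. After LPS, Cd3e and Cd8a were at 0 in the wt library and Cd8a also in the 3′RR-deficient one. The 6 erythroid markers, led in every library by the globin genes Hba-a1 and Hbb-bs, summed to 3356, 20107 and 3860 CPM at rest and to 53.2, 671 and 133 CPM after LPS, and all 6 were called lower. After LPS, Klf1 was at 0 in both enhancer-deficient libraries. The 6 plasma cell markers summed to 547, 2237 and 592 CPM at rest and to 582, 1591 and 893 CPM after LPS, with 2 called higher and 0 lower. Jchain was the most abundant of them in the Eμ-deficient libraries (1737 CPM at rest and 804 CPM after LPS), whereas Irf4 exceeded it in the wt and 3′RR-deficient libraries, with 268 to 386 CPM against 96.2 to 200 CPM. In bulk RNA, fewer cells of a type and less RNA per cell cannot be told apart, and the part of these cells in the LPS results was not tested.

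Promoters were compared because 34 of the 46 genes rose together. RefSeq windows of GRCm38.p6 with 250 bases before and 50 bases after the start site were found for 41 of the 46 genes, all but Bop1, Rrp12, Rrs1, Npm1 and Fbl. The E-box CACGTG, a motif that reads the same on both strands and is bound by helix-loop-helix factors such as Myc, was found in 9 of the 41 windows (22%), in 11.9% of the 9441 tested genes with a window and in 7.15% of all 32851 windows. The ETS core CCGGAAG, searched on both strands, was found in 14 of the 41 (34.1%), in 20.7% of the tested genes and in 8.86% of all windows. For CCAAT, also searched on both strands, these shares were 36.6%, 43.1% and 37.4%. None of these motifs can share bases with another of them, though the ETS core and CCAAT can each overlap their own reverse complement. Of the 9 genes with an E-box, 5 rose with LPS and the median log2 fold change of the 9 was 0.89. Of the 32 without it, 25 rose and the median was 1.19. A match describes the letters of a window and does not show that a factor binds there.
The E-box lay before the start site in Rrn3, Nop2 and Imp4, and after it in Ltv1, Utp20, Pes1, Mybbp1a, Tsr1 and Wdr43. The 4 upstream stretches are printed with the E-box in capitals, from 5′ to 3′ on the strand of the gene, to show the motif in its surroundings. They are from Rrn3 at chr16:13780462-13780511 and chr16:13780629-13780678, from Nop2 at chr6:125131801-125131850 and from Imp4 at chr1:34439686-34439735, all on the plus strand of GRCm38.p6.
Rrn3, distal: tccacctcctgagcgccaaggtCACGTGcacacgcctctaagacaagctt
Rrn3, proximal: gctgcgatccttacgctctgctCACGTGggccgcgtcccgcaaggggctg
Nop2: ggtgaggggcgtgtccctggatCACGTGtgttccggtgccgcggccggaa
Imp4: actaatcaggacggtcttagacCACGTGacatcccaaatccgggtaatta
Nop2 and Rrn3 rose with LPS, and Imp4 was not called (log2 fold change 0.52, edgeR adjusted p = 0.119). The genes with the largest and the smallest log2 fold change, Nop16 and Gnl3, held no E-box in their windows. The 100 bases before their start sites, at chr13:54590075-54590174 and chr14:31019132-31019231 on the minus strand, are printed for comparison.
Nop16: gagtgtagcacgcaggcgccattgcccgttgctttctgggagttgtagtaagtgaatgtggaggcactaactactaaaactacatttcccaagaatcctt
Gnl3: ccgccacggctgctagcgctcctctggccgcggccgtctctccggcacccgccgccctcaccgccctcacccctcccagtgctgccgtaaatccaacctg

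Some of the 46 genes carry snoRNA genes in their introns, a known feature of genes for ribosome production. In the annotation, 7 of them (Nop56, Nop58, Ncl, Dkc1, Wdr43, Tsr1 and Gnl3) hold 21 snoRNA genes on their own strand. In the count table, 7 of these 21 had 0 counts in all libraries, and the highest sum over the 6 libraries was 253 counts, for Snord19 in Gnl3. Such short RNAs are poorly captured in libraries of this kind, so that their levels were not compared. The cause of the low counts was not tested. Of the 7 host genes, 5 rose with LPS, and Tsr1 and Gnl3 did not pass the test.

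Other genes of ribosome production were examined in lists of 111 genes, of which 109 were in the count table and all 109 of those were tested. Of these, 55 were higher after LPS and 1 was lower, against 19.7% and 21.1% of all genes. The count of genes called higher was 15 with scaling by spike-in RNAs, against 9.95% of all genes. It was 35 without the Eμ-deficient libraries, against 14.9%, and 34 without the 3′RR-deficient libraries, against 16%.
Of 11 other Pol I genes, 2 rose and 1 fell, and their median log2 fold change was -0.08, against 19.7% higher, 21.1% lower and a median of -0.07 over all genes. Cd3eap, a Pol I subunit, rose by 2.12 on the log2 scale and Polr1d, a subunit shared with RNA polymerase III, by 1.10. Taf1c, a subunit of the promoter selectivity factor, had a log2 fold change of -0.46 and was not called, and Baz2a, a subunit of a complex that silences ribosomal DNA, fell by 0.73 (edgeR adjusted p = 0.0465). Baz2a was not called when the libraries of any 1 genotype were left out, with log2 fold changes of -0.46 without wt, -0.74 without Eμ-deficient and -0.89 without 3′RR-deficient.
Among 41 other small subunit factors, 23 rose and 0 fell, with a median log2 fold change of 0.73. Pno1, which acts with Nob1, had 12.2, 11.1 and 12.7 CPM in the resting wt, Eμ-deficient and 3′RR-deficient libraries and 85.0, 46.2 and 59.4 CPM after LPS, a 5.16-fold higher level (edgeR adjusted p = 0.000216). Bysl rose by 1.55 on the log2 scale. Ddx47, a helicase, and Riok1, a kinase of late maturation, had log2 fold changes of -0.11 and -0.20 and were not called.
Among 40 other large subunit factors, 18 rose and 0 fell, with a median of 0.57. Rpf2 and Rsl24d1, both assembly factors, had the largest log2 fold changes, 1.59 and 1.49. Gltscr2 and Rpf1 had the smallest, -0.49 and -0.54, and were not called.
Of 11 genes of the RNA exosome, the nuclease complex that trims ribosomal RNA precursors, 9 rose and 0 fell, with a median log2 fold change of 1.22. Mphosph6 and Exosc7 rose by 1.81 and 1.59 on the log2 scale, whereas Exosc5 and the nuclease Exosc10 had 0.31 and 0.12 and were not called.
Of 6 genes that sense disturbed ribosome production through p53, 3 rose and 0 fell. Rpl11, a ribosomal protein that binds Mdm2, had a log2 fold change of 0.85 (edgeR adjusted p = 0.0263), Trp53, which encodes p53, one of 0.76, and Rpl5 and Mdm2 had 0.55 and -0.02 and were not called. Neither Rpl11 nor Trp53 was called without the Eμ-deficient libraries (0.97 and 0.85) or without the 3′RR-deficient libraries (0.88 and 0.59). Cdkn2a, which encodes the p53 activator Arf, was called higher, but it had 0.165, 0 and 0.0973 CPM at rest and 1.82, 0.938 and 2.02 CPM after LPS, so that no fold change is given.

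Whether loss of an IgH enhancer changes these genes was asked first in the fit over both culture states. Between 3′RR-deficient and wt B-cells, 0 of the 46 genes were called, against 99 (0.678%) of all genes. The median log2 fold change was 0.09 over the 46 genes and 0.04 over all genes, with 29 genes above 0 and 17 below, against 46.6% of all genes below 0. With spike-in scaling 7 were below, against 35.2%. The lowest value was -0.43 for Nop58 and the highest 0.62 for Bop1, and the lowest adjusted p in the edgeR quasi-likelihood fit was 0.915. At an unadjusted p under 0.05 there were also 0 genes, and the DESeq2 Wald test called 0.
Between Eμ-deficient and wt B-cells, 0 of the 46 genes were called by edgeR and 0 by the DESeq2 Wald test, against 171 (1.17%) of all genes in the edgeR fit, and 1 gene, Pes1, had an unadjusted p under 0.05. The median log2 fold change was -0.24 over the 46 genes and -0.01 over all genes, and 42 of the 46 had a value below 0. Of all genes 51.4% were below 0. Under every scaling tried, 42 to 46 of the 46 genes were below 0, against 51% to 75.9% of all genes. With spike-in scaling the median of the 46 genes was -0.58 and that of all genes -0.36.
Pes1, a member of the complex with Bop1 and Wdr12 (ENSMUSG00000020430, chr11:3963975-3980004, plus strand), had 126 CPM at rest and 145 CPM after LPS in wt, against 54.5 and 77.1 CPM in Eμ-deficient B-cells. It was lower in the Eμ-deficient library of both states, and its log2 fold change of -1.07 (standard error 0.30, edgeR adjusted p = 0.199) did not pass the threshold. Over the alternative fits the adjusted p of the edgeR quasi-likelihood test was lowest with no low-count filter (0.0449, where Pes1 was called) and highest with spike-in scaling (0.331). Its transcripts share 10.4% of their stretches of 75 bases with other genes, among them a processed pseudogene with 0 counts.

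Within a culture state, the ratio of 2 libraries was taken for each gene. In resting B-cells, 1 of the 46 genes, Pes1, differed at least 2-fold in either direction between the Eμ-deficient and the wt library, against 18.2% of all genes, and 0 of 46 between the 3′RR-deficient and the wt library, against 9.33%. After LPS, 0 of the 46 genes differed at least 2-fold between the Eμ-deficient and the wt library, against 12.5%, and 4 between the 3′RR-deficient and the wt library, against 26.6%. All genes tested include many genes with lower counts. These counts depended on the scaling. With spike-in scaling, 21 of the 46 genes were at least 2-fold lower in the resting Eμ-deficient library, against 36.6% of all genes, and after LPS 14 were at least 2-fold higher in the 3′RR-deficient library, against 35.2%.
The resting Eμ-deficient library had a median log2 ratio to wt of -0.17, with 30 genes lower and 16 higher, against 47.8% of all genes lower. This median was -0.36 with scaling by total counts and -0.98 with spike-in scaling, where all 46 genes and 83.3% of all genes were lower. The TMM values ran from -1.20 for Pes1 (95% interval -1.33 to -1.08) to 0.74 for Gnl3 (0.64 to 0.83). After LPS the median was -0.34, with 42 genes lower and 4 higher, against 47.9% of all genes lower, from -0.91 for Pes1 to 0.13 for Rrp1. Spike-in scaling gave a median of -0.19 after LPS, with 34 genes lower, against 35.1%. The median of all genes was 0.03 in both states. The 95% interval lay below 0 in both states for 11 genes, namely Nolc1, Polr1b, Ubtf, Rrs1, Pes1, Nop2, Rrp1b, Nip7, Wdr43, Nob1 and Mybbp1a, and above 0 in both for 0 genes. Among all genes these shares were 5.75% and 8.09%. With spike-in scaling the counts were 27 and 0, against 10.7% and 3.36%. By role, the median after LPS ran from -0.66 for the nucleolar proteins with several roles to -0.21 for the small subunit factors. At rest the order was another, with 0.29 for the nucleolar proteins with several roles, -0.24 for the small subunit factors and the lowest median, -0.41, for the large subunit factors.
The Eμ-deficient libraries also differed from wt in cell markers. At rest the erythroid markers summed to 20107 CPM against 3356 CPM, the myeloid markers to 397 against 165 CPM and the T-cell markers to 42.3 against 19.1 CPM, while the B-cell markers summed to 4339 against 5553 CPM. Jchain, a plasma cell marker, had 1737 CPM against 113 CPM at rest and 804 against 96.2 CPM after LPS. The part of other cells in the ratios of the 46 genes was not tested.
The 3′RR-deficient libraries were close to wt at rest, with a median log2 ratio of 0.01 and an SD of 0.23 over the 46 genes. The median was -0.18 with total counts and -0.24 with spike-in scaling. Pes1 had the lowest value, -0.79 (95% interval -0.89 to -0.70), and Noc3l the highest, 0.41. These ratios and those of the Eμ-deficient libraries share the same wt library. After LPS the median was 0.12, against 0.11 for all genes, and the SD was 0.56. With spike-in scaling the median after LPS was 0.67. Bop1 had 104 CPM in 3′RR-deficient B-cells, against 35.4 CPM in wt, a log2 ratio of 1.56 (95% interval 1.42 to 1.70). Rrp1 and Rrp12 were also over 2-fold higher, with 1.19 and 1.12, and Nop58 was over 2-fold lower, with 173 CPM against 372 CPM and a log2 ratio of -1.10 (-1.18 to -1.02).

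**Figure D4:**
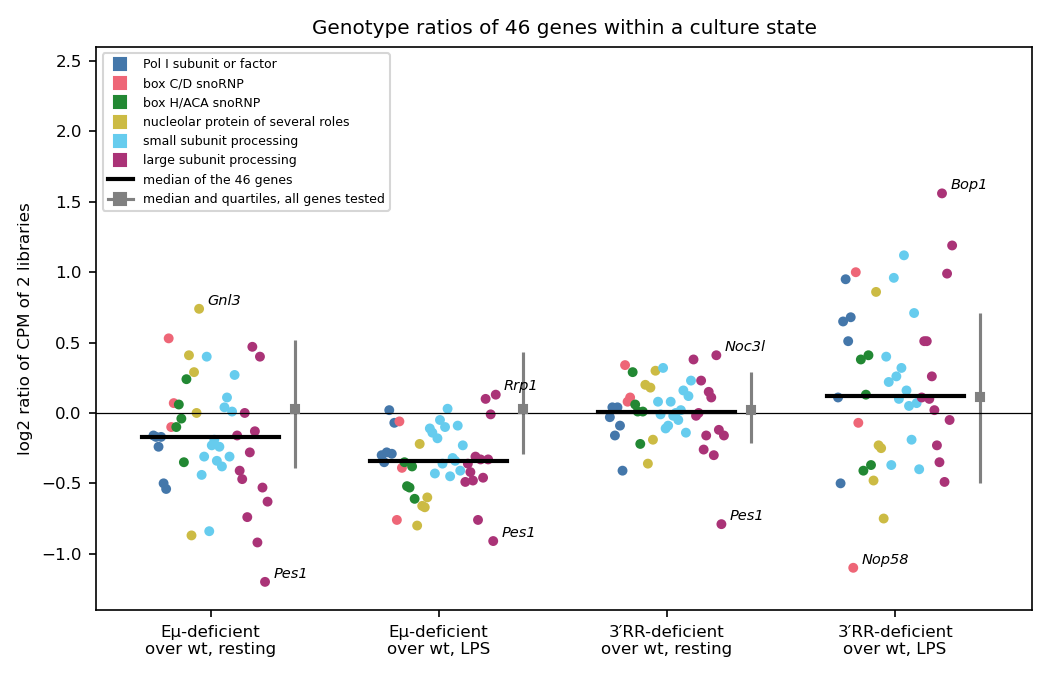
Log2 ratio of CPM of the Eμ-deficient or 3′RR-deficient library to the wt library of the same culture state, with 1 point for each of the 46 genes, black bars at their medians (-0.17, -0.34, 0.01 and 0.12 from left to right) and grey squares with bars for the median and quartiles of all genes tested. The points are spread most widely for the 3′RR-deficient library after LPS, between Nop58 at -1.10 and Bop1 at 1.56.

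The ratios to wt moved with base composition. Over the 46 genes, the log2 ratio between the 3′RR-deficient and wt libraries after LPS had a Pearson correlation with GC content of 0.79 and a Spearman correlation of 0.83, across genes of 1 pair of libraries. Over 14363 tested genes with a known GC content the Spearman correlation was 0.57. At rest the Pearson correlation over the 46 genes was -0.39 for the 3′RR-deficient and -0.69 for the Eμ-deficient library, and after LPS it was 0.56 for the Eμ-deficient library. With the trend on GC content removed, 0 of the 46 genes differed at least 2-fold between the 3′RR-deficient and the wt library after LPS, the SD fell from 0.56 to 0.34, and Bop1 and Nop58 had log2 ratios of 0.87 and -0.54. For the Eμ-deficient library the same removal moved the median from -0.17 to -0.10 at rest and from -0.34 to -0.39 after LPS, and the SD at rest from 0.41 to 0.30. Pes1 was then at -0.98 after LPS and -1.16 at rest.

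**Figure D5:**
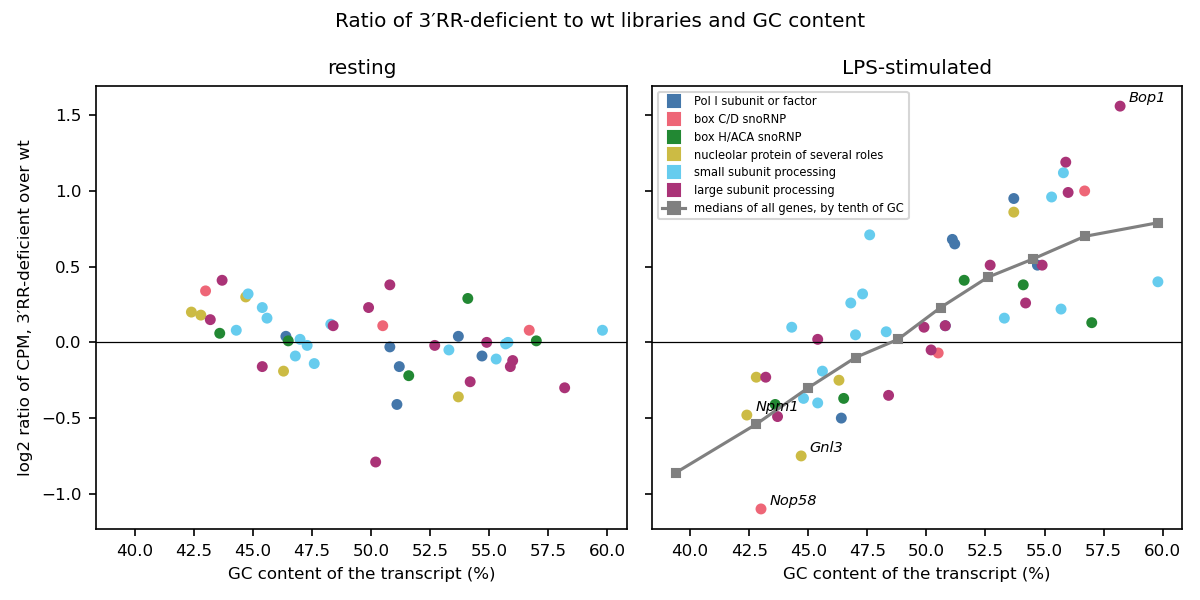
Log2 ratio of CPM between the 3′RR-deficient and wt libraries against the GC content of the transcript in percent, in resting (left) and LPS-stimulated B-cells (right), with 1 point for each of the 46 genes coloured by role and, on the right, grey squares for the medians of all genes in 10 bins of GC content. On the right these medians run from -0.86 (lowest GC content) to 0.79 (highest), and the points of the 46 genes also rise from left to right.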

How the data were processed

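The authors depleted ribosomal RNA, prepared stranded libraries, mapped paired reads to mm10 (STAR 2.4.0a) and counted fragments per gene name with featureCounts (Subread 1.4.6-p1), multi-mapping reads included, and deposited these raw counts for 6 libraries. The labels and the study's methods differ on whether resting cells were cultured and on the number of pools, and 1 label text gives another LPS concentration. The 92 spike-in RNAs took 4.75% to 7.1% of counts and entered library sizes in 1 alternative and no test. Coordinates, lengths and GC content are from GENCODE M21 (GRCm38), and promoter windows from RefSeq.
Counts were scaled with TMM and fitted with edgeR 4.0.16 (R 4.3.3), quasi-likelihood, with genotype and culture state as terms, for genes reaching 10 counts in 2 or more libraries. P-values had Benjamini-Hochberg adjustment over 14600 genes and a threshold of 0.05. Standard errors were derived from the F statistic. Ratios of 2 libraries have exact conditional binomial (Clopper-Pearson) 95% intervals (scipy 1.17.1), and libraries at or under 3 counts were set to 3 for medians over all genes. TPM and GC content used 1 annotated transcript per gene, whose length, and with it the GC content, is uncertain for Ncl and Imp4. Values in all libraries are given for the 2 largest, the smallest and the most abundant gene of each role, and for each other list the 2 largest and 2 smallest changes are named; Pes1, Gar1 and other genes were named after their values were seen. In the B-cell and erythroid marker lists, 1 gene each is not reported here and not in the sums. The genes and lists were chosen with earlier results of these data known.
Alternatives were scaling by total counts, by DESeq2 1.42.0 size factors, without immunoglobulin genes or by spike-in RNAs, other filters, the DESeq2 Wald test, removal of trends on GC content or transcript length, no genotype term, and leaving out genotypes.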

Additional observations from a re-analysis of the deposited data

Results flagged for a closer look

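Some genes moved in opposite directions between genotypes or between culture states, with both 95% counting intervals on opposite sides of 0. Each is a comparison of single libraries, and the differences were not tested. Values are with the TMM scaling unless stated. The ratios of both enhancer-deficient genotypes share the wt library of their state.
Of the LPS ratios, that of Gnl3 was lower in Eμ-deficient than in wt B-cells by a log2 difference of -1.33 (-0.52 and 0.81) and in 3′RR-deficient B-cells by -1.04 (-0.23 and 0.81). That of Rrp1 was higher than in wt by 0.77 in Eμ-deficient (0.32 and -0.45) and by 1.36 in 3′RR-deficient B-cells (0.91 and -0.45). These are 2 of the 46 genes, and among all genes tested 5.61% lay on opposite sides in wt and Eμ-deficient and 8.37% in wt and 3′RR-deficient B-cells.
The ratio of the Eμ-deficient to the wt library was above 0 at rest and below 0 after LPS for 9 genes. The log2 differences, LPS minus resting, were -1.29 for Nop58, -0.95 for Ncl, -1.21 for Npm1, -0.85 for Nop10, -0.80 for Wdr12, -0.50 for Utp15, -0.73 for Noc3l, -0.83 for Wdr75 and -1.34 for Gnl3. For Rrp1 the ratio went from below to above 0, a difference of 0.76. Together these are 10 of the 46 genes, and among all genes tested 16% lay on opposite sides in the 2 states.
Between the 3′RR-deficient and wt libraries the ratio went from above to below 0 for Nop58 (-1.44), Ncl (-0.41), Npm1 (-0.68), Utp15 (-0.63), Noc3l (-0.90), Wdr75 (-0.69) and Gnl3 (-1.05), and from below to above 0 for Nolc1 (0.63), Polr1a (1.09), Rrs1 (0.52), Bop1 (1.86), Rrp1 (1.35), Noc2l (1.11) and Mybbp1a (1.22). These are 14 of the 46 genes, against 17.6% of all genes tested. The ratios moved with GC content, with correlations across the 46 genes of -0.39 at rest and 0.79 after LPS.
With the GC trend removed, some of these turns were no longer seen. In wt the LPS ratio of Rrp1 was then 0.01, above 0 as in the other genotypes. The ratio of Eμ-deficient to wt was then below 0 in both states for Rrp1 (-0.29 at rest and -0.06 after LPS), and at rest it was 0.01 for Ncl. Between 3′RR-deficient and wt it was above 0 in both states for Ncl (0.09 and 0.34) and Npm1 (0.10 and 0.12) and -0.20 in both for Rrs1. For Noc3l and Wdr75 it was 0.33 and 0.25 at rest and 0.00 for both after LPS. After this removal the other turns kept their direction, for example Bop1 (-0.22 and 0.87) and Nop58 (0.25 and -0.54). Some did so only with a value near 0. Between 3′RR-deficient and wt, examples were Noc2l (-0.05) and Rrp1 (-0.09) at rest and Utp15 (-0.09) after LPS. The LPS ratio of Gnl3 in 3′RR-deficient B-cells was then -0.07. No interval was computed for these values, and the GC content used for Ncl is uncertain, as is its transcript length.
The turns also depended on the scaling. With spike-in scaling, the intervals of the Eμ-deficient to wt ratio lay on opposite sides of 0 in the 2 states for Bop1, Rrp1, Rrp12 and Noc2l, and for 0 of the 9 genes that were above 0 at rest with TMM. Those of the 3′RR-deficient to wt ratio did so for 29 of the 46 genes, which did not include Nop58, Npm1, Utp15, Noc3l, Wdr75 and Gnl3. For the LPS ratio, wt lay opposite to both other genotypes for 14 genes, among them Rrp1 but not Gnl3. Among all genes tested the shares with spike-in scaling were 23.8% (Eμ-deficient to wt), 30.3% (3′RR-deficient to wt), 16% (LPS, wt and Eμ-deficient) and 13% (LPS, wt and 3′RR-deficient).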

How the results depend on the processing

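Of the alternatives, scaling by spike-in RNAs gave the fewest of the 46 genes called higher after LPS (13), and 26 of the 34 called genes were called in every other fit, 13 of them in every fit. With this scaling 1453 of all genes were higher, 15 genes of the other lists were, and the median of the 46 genes for Eμ-deficient against wt was -0.58. Within a genotype it gave a median LPS ratio of 0.23 in wt, and medians to wt of -0.98 (Eμ-deficient) and -0.24 (3′RR-deficient) at rest and of -0.19 and 0.67 after LPS. Scaling by total counts gave 0.78 for LPS in wt and -0.36 and -0.18 for the Eμ-deficient and 3′RR-deficient ratios at rest, and removal of the GC trend gave 1.17 for LPS in wt. Without a filter on low counts, 1 gene was called between Eμ-deficient and wt B-cells, and the median of all genes for LPS was 0.16. Leaving out a genotype gave 26 to 42 called genes and medians of 1.07 to 1.31, 34 to 64 genes of the other lists, and 2105 to 3426 genes higher and 1849 to 3229 lower. The LPS log2 fold change of Gnl3 was below 0 with total counts (-0.07), spike-in scaling (-0.19), 10 counts in all libraries (-0.09), removal of the GC (-0.03) or length trend (-0.02) and ran from -0.35 (without wt) to 0.38 (without Eμ-deficient) with a genotype left out, where that of Rrp1 ran from -0.08 (without 3′RR-deficient) to 0.64 (without wt). Of the genes of the other lists that were not called, the sign changed for Ddx47 (0.02 without wt), Exosc5 (-0.02, length trend removed), Exosc10 (-0.08 with spike-in scaling) and Mdm2 (0.08, length trend removed, and 0.01 with no filter), and with a genotype left out Ddx47, Exosc10 and Mdm2 ran over -0.19 to 0.02, -0.01 to 0.35 and -0.11 to 0.14. The cause was not tested. A pool of 2 mice, with 1 for each genotype and state, leaves differences between mice unmeasured.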
